A study of Mus musculus with 47 samples.

Results

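10 genes of microvillous and tuft cells were followed through postnatal development of the mouse olfactory epithelium: Trpm5, Plcb2, Pou2f3, Avil, Ascl3, Alox5, Alox5ap, Ltc4s, Chat and Il25. They were taken by symbol from the 54532 genes of the expression table, as known genes of these cells, and all 10 were found. Polyadenylated RNA from dissected epithelium was read at 7 postnatal days (P0 for the day of birth, then P3, P5, P7, P10, P14, P21) in wild-type mice of the strain C57BL/6J (WT) and in mice of the strain label OIVT;Kir2.1 (Kir). Kcnj2 encodes Kir2.1, a potassium channel that damps excitability when overexpressed; the labels do not give the cells in which it was expressed or the promoter that drove it. There were 4 WT and 4 Kir libraries at P0 and at P7, 3 WT and 4 Kir at P10, and 3 of each genotype at every other age, 47 in all. Whether the libraries of a group are separate animals is not in the labels. The p-values therefore weigh differences against the spread among these libraries, part of which may be technical and not between animals.

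Microvillous cells are sparse non-neuronal cells of the olfactory epithelium with short apical microvilli. One kind carries the cation channel Trpm5 and depends on the transcription factor Pou2f3, like the tuft cells of the airway and gut, which read chemical cues through a taste-type cascade and answer with leukotrienes, acetylcholine and the cytokine Il25. The other kind carries the transcription factor Ascl3 and resembles ionocytes. Several of the genes are also active elsewhere: Alox5, Alox5ap, Ltc4s and Plcb2 in leukocytes, and Chat in cholinergic neurons. In whole tissue, more cells of a type and more RNA per cell cannot be told apart.

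Libraries held 8107547 to 30385151 reads counted on genes. Kcnj2 was at 36.8 to 104 CPM (reads scaled to the same total per library) in WT libraries and at 132 to 1648 CPM in Kir libraries. The unmapped share was 1.31% to 33.5%, the highest in Kir P10 replicate 2. All P0, P3, P14 and P21 libraries carried one title prefix and all P5 and P10 libraries another, whose meaning is not given, while P7 held 3 prefixes in both genotypes. Age changes were therefore read among P0, P3, P14 and P21, and between P5 and P10.

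Pou2f3 is a member of the list, and the upstream sequence of the others was searched for the octamer ATGCAAAT, the sequence known to be bound by POU factors such as Pou2f3, on both strands of the 250 bases before the RefSeq start (GRCm38.p6). The table held windows for 7 of the 10 genes (not Pou2f3, Alox5ap or Il25). None of the 7 held the whole octamer, which was in 1.6% of all 32851 windows. Its first 7 letters, ATGCAAA, stood in the windows of Avil and Ascl3 and in 4.12% of all windows, and its last 7, TGCAAAT, in that of Chat and in 3.56% of all. These forms overlap each other and a match is a description of the letters, not a site. The Avil and Ascl3 windows are shown because they hold the match beside different results with age: Avil rose from P0 to P21 and Ascl3 did not pass the test. The Avil window is chr10:127000459-127000708 (plus strand) and the Ascl3 window chr7:109731733-109731982 (minus strand), both written 5′ to 3′ on the gene's strand, with each match, on either strand, in capitals.
Avil: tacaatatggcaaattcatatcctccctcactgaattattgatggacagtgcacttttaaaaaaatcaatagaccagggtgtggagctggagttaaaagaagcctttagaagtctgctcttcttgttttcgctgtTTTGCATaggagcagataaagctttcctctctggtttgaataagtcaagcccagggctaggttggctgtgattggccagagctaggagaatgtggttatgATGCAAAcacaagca
Ascl3: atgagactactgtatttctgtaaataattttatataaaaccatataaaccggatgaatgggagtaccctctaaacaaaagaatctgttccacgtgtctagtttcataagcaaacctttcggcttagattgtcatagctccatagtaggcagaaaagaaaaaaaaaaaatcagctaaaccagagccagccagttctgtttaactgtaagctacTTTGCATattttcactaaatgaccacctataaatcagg
Counting the base before the start as -1, the matches begin, in the printed direction, at -115 (reverse strand) and -15 (gene strand) in Avil and at -38 (reverse strand) in Ascl3. No annotated exon lies in either window.

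In TPM (a level corrected for transcript length and summing to the same total in each library), Ascl3 had the highest mean over the 47 libraries, 65.7 TPM. Alox5ap followed at 7.92, Trpm5 at 5.08, Alox5 at 4.88, Pou2f3 at 4.13, Ltc4s at 2.65 and Avil at 2.55 TPM. Plcb2 was at 0.786 TPM, Il25 at 0.252 and Chat at 0.179. Changes were tested with edgeR's quasi-likelihood test on the read counts, with Benjamini-Hochberg adjustment over the 19927 genes that passed its filter on low counts. 8 of the 10 passed; Chat and Il25, with 159 and 149 reads over all libraries, did not. In the text below, rose, fell and called mean an adjusted p under 0.05, fold changes are log2 values of normalised counts with their standard error (SE), and levels are TPM unless CPM is named.

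**Figure D1:**
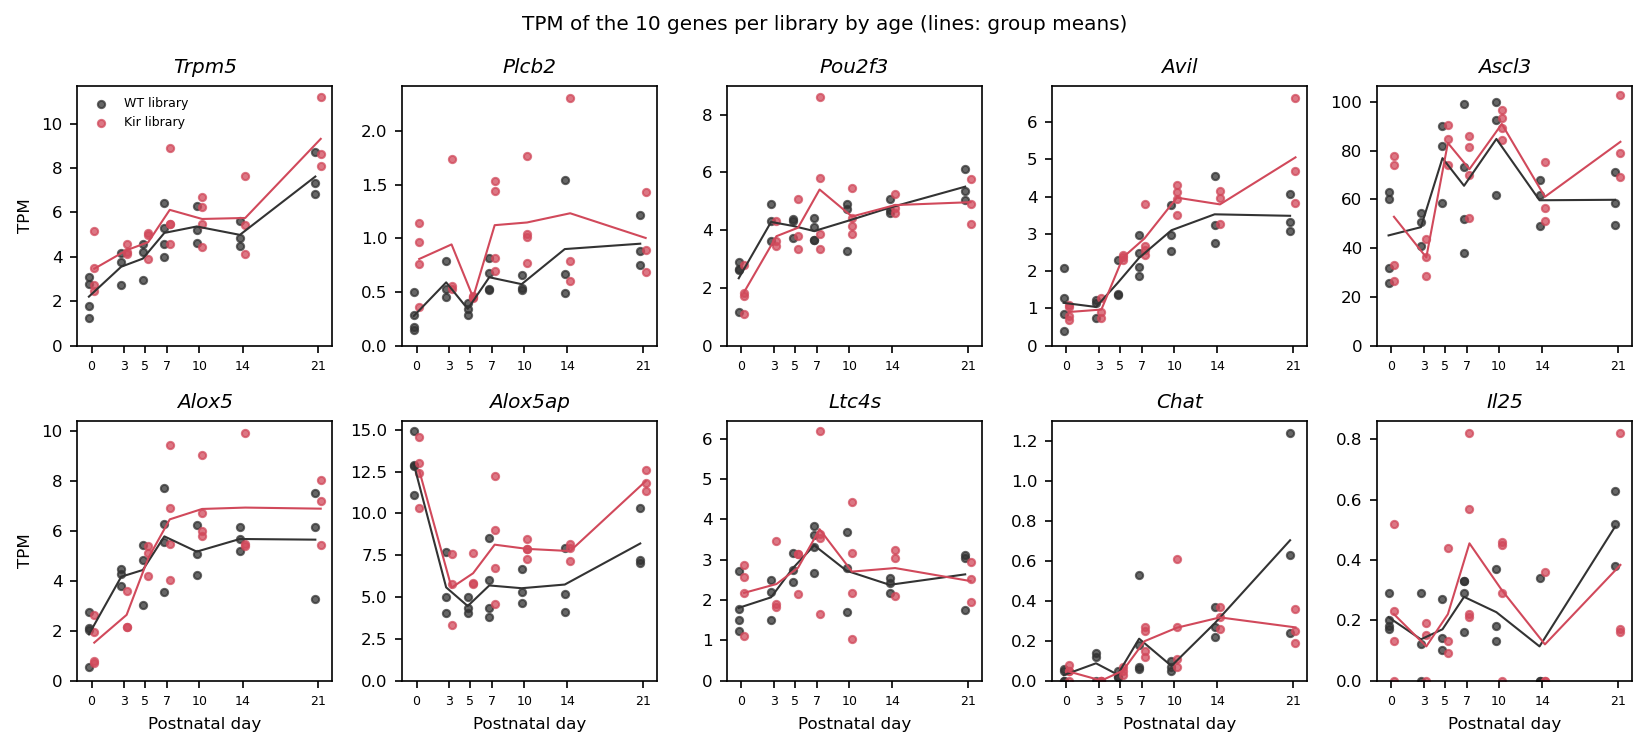
TPM (y axis, from 0, separate scale per gene) of the 10 genes in each library against postnatal day (x axis), WT in black and Kir in red, with lines through the group means. Trpm5, Pou2f3, Avil and Alox5 climb with age in both genotypes, Alox5ap starts at its highest level at P0, and Ascl3 is spread widely at P0.

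Most of the tuft-type genes were higher at P21 than at birth. In WT, 5 of the 8 tested genes rose from P0 to P21 (Alox5, Plcb2, Trpm5, Avil and Pou2f3), by 1.22 to 2.47 on the log2 scale, and none fell. Ascl3, Ltc4s and Alox5ap did not pass the test. So large a part of the transcriptome moved over this interval that 50.6% of all tested genes were called, with 23.9% of all higher and 26.7% lower. The median change of the 8 genes was 1.31, against -0.05 over all tested genes. The genes were chosen with earlier results of these data known, so their medians are a description and no test. In Kir the same 5 genes rose, with 48.7% of all genes called and a median of 1.19 against -0.04. The 2 comparisons share no library. A rise was not particular to these genes. Summed over 8 markers of sustentacular (supporting) cells, the level went from 2902 to 5056 TPM in WT P0 to 14969 to 18229 in WT P21. For 13 markers of mature olfactory neurons it went from 1605 to 2138 TPM to 8056 to 8193. Summed over 8 olfactory progenitor markers it went down, from 304 to 385 TPM to 161 to 207.

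**Figure D2:**
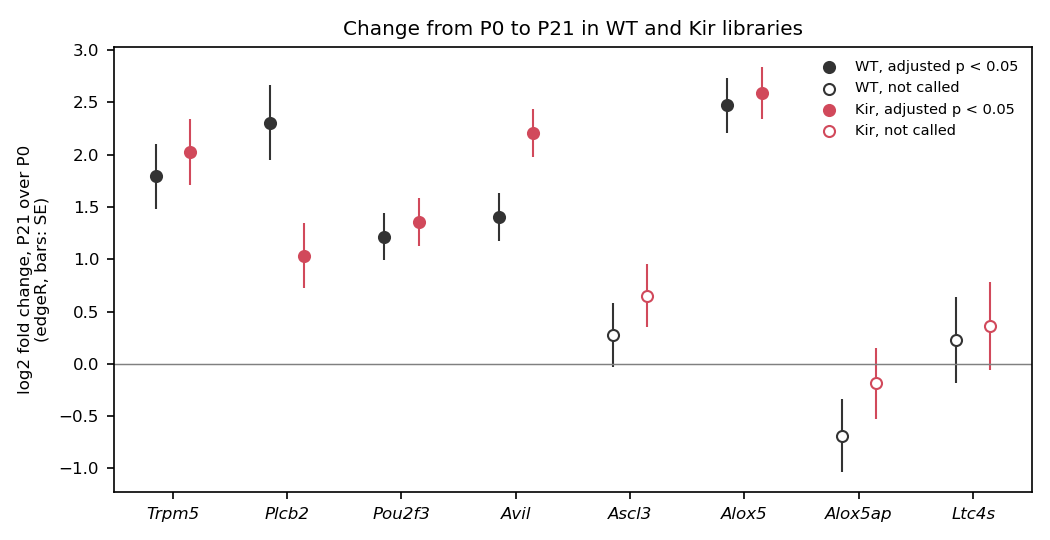
Log2 fold change of P21 over P0 (y axis) for the 8 tested genes (x axis) in WT (black, 3 against 4 libraries) and Kir (red, 3 against 4), with SE bars; filled points have an adjusted p under 0.05 by edgeR. Filled points stand at Trpm5, Plcb2, Pou2f3, Avil and Alox5 in both genotypes, and Plcb2 is the one with the widest gap between WT (2.30) and Kir (1.03).

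Trpm5 (chr7:143069153-143094642, minus strand, GENCODE on GRCm38) encodes the calcium-activated cation channel at the end of the taste-type cascade. Its level was 2.76, 1.77, 1.23 and 3.08 TPM in the 4 WT P0 libraries and 7.31, 8.72 and 6.81 in the 3 WT P21 libraries. In Kir it was 5.18, 2.46, 2.72 and 3.50 TPM at P0 and 8.65, 8.09 and 11.19 at P21. All P21 libraries lay above all P0 libraries of their genotype. The change was 1.79 ± 0.31 in WT (adjusted p = 1.33e-05) and 2.03 ± 0.31 in Kir (adjusted p = 1.72e-06). Between these ages the group means went through 3.56 at P3 and 4.99 at P14 in WT, and neither the step from P0 to P3 (0.72 ± 0.32) nor that from P3 to P14 (0.55 ± 0.33) passed the test alone. An exon of the opposite-strand gene Tssc4 overlaps Trpm5, and no source used here gives the strand setting of the count, so reads of the pair cannot be told apart where they overlap.

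Plcb2 (chr2:118707517-118728438, minus strand) encodes the phospholipase that acts upstream of Trpm5 and is also a leukocyte enzyme. It was at 0.15, 0.29, 0.17 and 0.50 TPM in WT P0 and at 1.22, 0.75 and 0.88 in WT P21, without overlap. The WT rise was 2.30 ± 0.36 (adjusted p = 1.79e-06), and 0.61 with limma on log2(TPM + 1) (adjusted p = 0.0170), a scale that understates changes of low genes. In Kir the levels at P0 were 0.97, 0.76, 0.36 and 1.14 TPM and at P21 0.89, 0.69 and 1.43, which overlap. In CPM the Kir P0 libraries (1.02 to 1.55) lay below the Kir P21 libraries (2.09 to 2.78), and the change in counts was 1.03 ± 0.31 (adjusted p = 0.0061). With limma on log2(TPM + 1) it was 0.15 (adjusted p = 0.60). The ratio of TPM to CPM of Plcb2 ranged from 0.227 to 1.07 among libraries with at least 10 reads, so both measures are given for this gene. Already at P3, WT libraries stood above P0 by 1.18 ± 0.39 (adjusted p = 0.0273), and at P14 above P3 by 1.04 ± 0.35 (adjusted p = 0.0298). The first was lost on leaving out any of 4 libraries, WT P0 replicate 1 or 3 (0.0614 and 0.0926) or WT P3 replicate 1 or 3 (0.117 and 0.153), and the second on leaving out WT P3 replicate 2 (0.189) or WT P14 replicate 1 or 2 (0.0666 and 0.114), each an adjusted p.

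The rest of the taste-type cascade was read from a list of 19 genes, of which 9 passed the filter, Trpm5 and Plcb2 among them. In WT, 7 of the 9 rose from P0 to P21 and 1 fell (50.6% of all genes called), and in Kir 6 rose and 1 fell (48.7%). Gng13, a G protein gamma subunit of tuft and taste cells that olfactory neurons also use, went from 379 ± 87.6 TPM (SD, n = 4) to 1562 ± 100.8 (n = 3) in WT. Gnb1, a widely expressed beta subunit, rose by 0.96 ± 0.11, and the taste receptor gene Tas1r1 by 0.81 ± 0.20. Gnat3, the taste G protein alpha subunit gustducin, was called in both genotypes and reached 0.807 ± 0.325 TPM (n = 3) in Kir P21 from 0.208 ± 0.138 (n = 4). Itpr3, the calcium release channel below Plcb2, went the other way, from 15.3 ± 2.89 TPM to 6.75 ± 0.743 in WT, and fell by 1.29 ± 0.21. All 13 markers of mature olfactory neurons also rose over this interval in WT, with a median of 1.95; their part in the values of Gng13 and Gnb1 was not tested.

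Pou2f3 (chr9:43123939-43210369, minus strand) encodes the POU transcription factor that tuft cells need to form. It stood at 1.17, 2.65, 2.90 and 2.62 TPM in WT P0 and at 5.36, 5.03 and 6.12 in WT P21, a change of 1.22 ± 0.22 (adjusted p = 2.45e-05). The Kir libraries held 2.79, 1.84, 1.71 and 1.09 TPM at P0 and 4.21, 4.91 and 5.78 at P21, a change of 1.36 ± 0.23 (adjusted p = 6.59e-06). P21 lay above P0 without overlap in both genotypes. The WT mean was already 4.28 TPM at P3, with a step from P0 of 0.80 ± 0.23 (adjusted p = 0.0106), while the change from P3 to P14 was 0.06 ± 0.24. The call at P3 was lost without WT P0 replicate 1, the lowest library, where the step was 0.56 (adjusted p = 0.0565).

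Avil (chr10:127000709-127020994, plus strand) encodes advillin, an actin-bundling protein of tuft cell microvilli and of some sensory neurons. Its WT means were 1.15 TPM at P0, 1.04 at P3, 3.52 at P14 and 3.48 at P21. The 4 WT P0 libraries held 0.85, 0.39, 1.27 and 2.09 TPM, the 3 at P3 0.74, 1.23 and 1.15, and the 3 at P14 4.56, 3.25 and 2.76. P14 lay above P3 without overlap, by 1.56 ± 0.25 (adjusted p = 2.38e-05), whereas the step from P0 to P3 was -0.37 ± 0.25. From P5 to P10, the other pair of ages with one prefix, Avil was the single gene of the 8 that rose, from 1.36, 1.38 and 2.30 TPM to 2.98, 3.78 and 2.53, by 0.96 ± 0.23 (adjusted p = 0.0141). That call was lost without WT P5 replicate 1 (0.172) or 2 (0.0939) or WT P10 replicate 2 (0.119), each an adjusted p. From P0 to P21 the change was 1.40 ± 0.23 in WT (adjusted p = 3.79e-06) and 2.21 ± 0.23 in Kir (adjusted p = 7.29e-10), where the P21 libraries held 6.65, 4.68 and 3.82 TPM. An exon of the opposite-strand gene Tsfm overlaps Avil.

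Counting steps, 4 of the 8 genes were called from P0 to P3 in WT (3 higher, 1 lower; 20.4% of all genes called), 3 from P3 to P14 (all higher; 22.4%), 0 from P14 to P21 (0.0452%) and 1 from P5 to P10 (1.91%). From P14 to P21 no gene had an unadjusted p under 0.05 either, and DESeq2 and limma on TPM also called 0; the changes ran from -0.05 to 0.52.

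Other genes of tuft and Trpm5-positive microvillous cells were read from a list of 26. Of these, 25 were in the table and 23 were tested, Avil and Pou2f3 among them. The list had 11 rises and 2 falls from P0 to P21 in WT, and 13 rises and 2 falls in Kir. Over all tested genes, 23.9% rose and 26.7% fell in WT, and 22.9% and 25.8% in Kir. Sh2d7, an SH2-domain adapter, went from 0.380 ± 0.141 TPM (SD, n = 4) to 3.92 ± 0.870 (n = 3) in WT, a change of 3.29 ± 0.29. Spib, an Ets-family transcription factor of tuft cells that some lymphocytes also use, rose by 3.04 ± 0.33 and Rgs13, a regulator of G protein signalling, by 2.92 ± 0.37. Sh2d6 rose by 1.73 ± 0.29. Those 4 genes were called in Kir too, with changes of 1.73 to 3.58. The list's median change was 0.51 in WT, less than that of the 8 genes (1.31), and -0.05 over all tested genes.

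Ascl3 (chr7:109727465-109731726, minus strand), the transcription factor gene of the ionocyte-type microvillous cell, did not pass the test between P0 and P21 in either genotype. It was at 25.56, 60.30, 63.08 and 31.90 TPM in WT P0 and at 58.64, 49.49 and 71.29 in WT P21, which overlap, with a change of 0.27 ± 0.31 (adjusted p = 0.48). The Kir libraries held 26.44, 77.75, 73.98 and 33.25 TPM at P0 and 69.22, 78.90 and 102.58 at P21, again with overlap, and a change of 0.65 ± 0.30 (adjusted p = 0.0742). At P0, replicates 1 and 4 were low and 2 and 3 high in both genotypes, in CPM as in TPM. The summed level of the 16 ionocyte genes at P0 did not divide the libraries that way: WT P0 replicates 1 to 4 held 584, 743, 652 and 827 TPM. The highest group means of Ascl3 were at P10, 84.7 ± 20.3 TPM in WT (SD, n = 3) and 90.9 ± 5.23 in Kir (n = 4), and they overlap those at P5 (76.9 ± 16.3 and 83.1 ± 8.26, n = 3 each). P5 and P10 carry another prefix than P0, P3, P14 and P21, so age and prefix cannot be told apart there.

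The list of 16 genes of Ascl3-positive cells and ionocytes, all tested, moved in both directions. From P0 to P21, 6 rose and 4 fell in WT (50.6% of all genes called), and 6 rose and 2 fell in Kir (48.7%). The median changes were 0.21 and 0.25. Coch, the gene of the secreted protein cochlin, went from 99.7 ± 29.5 TPM (SD, n = 4) to 323 ± 49.5 (n = 3) in WT. Stap1, a signalling adapter, rose by 1.66 ± 0.22. Kit, a receptor tyrosine kinase that mast cells and olfactory progenitors also carry, fell by 1.54 ± 0.12, and the proton pump subunit gene Atp6v1c2 fell by 0.83 ± 0.13. All 8 progenitor markers and all 4 tested mast cell markers fell over the same interval in WT; their part in the fall of Kit was not tested.

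The 3 genes of leukotriene synthesis did not move together. Alox5 (chr6:116410077-116461178, minus strand), 5-lipoxygenase, makes the first intermediate. It was at 0.55, 2.09, 2.76 and 2.01 TPM in WT P0 and at 7.54, 6.15 and 3.27 in WT P21, all higher, and rose by 2.47 ± 0.26 (adjusted p = 1.03e-09), or 1.24 with limma on log2(TPM + 1). In Kir it was at 0.78, 0.72, 2.63 and 1.96 TPM at P0 and at 7.22, 5.44 and 8.03 at P21, a rise of 2.59 ± 0.25 (adjusted p = 1.63e-10). It was also higher at P3 than at P0 in WT, at 4.46, 3.78 and 4.26 TPM, by 1.80 ± 0.27 (adjusted p = 1.19e-05), so that no P3 library overlapped P0. The further step to P14 was 0.71 ± 0.25 (adjusted p = 0.0375), and it was lost on leaving out any one of 5 of the 6 libraries (adjusted p up to 0.152).

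Alox5ap (chr5:149264767-149288153, plus strand), the membrane protein that hands arachidonic acid to Alox5, started high. WT P0 libraries held 14.96, 11.12, 12.88 and 12.83 TPM and WT P3 libraries 4.06, 7.67 and 5.0. It fell by 1.51 ± 0.37 from P0 to P3 (log2 change -1.51, adjusted p = 0.00372), without overlap. At P21 the WT libraries held 7.06, 10.35 and 7.20 TPM, all below P0. The change from P0 to P21 in counts was -0.69 ± 0.35 (adjusted p = 0.0968), while limma on log2(TPM + 1) gave -0.61 and passed the test (adjusted p = 0.0123). In Kir the P0 libraries held 10.32, 14.55, 13.04 and 12.41 TPM and the P21 libraries 12.60, 11.37 and 11.82, which overlap, and the change was -0.19 ± 0.34. The gene had few reads, 7 to 96 per library, its TPM per CPM ranged from 1.93 to 8.69, and an exon of the opposite-strand gene Gm19719 overlaps it.

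Ltc4s (chr11:50236461-50238616, minus strand), which joins glutathione to the leukotriene, had 3 to 29 reads per library. It was at 2.71, 1.22, 1.78 and 1.51 TPM in WT P0 and 3.12, 3.05 and 1.74 in WT P21, and changed by 0.23 ± 0.41 (adjusted p = 0.73), and by 0.36 ± 0.42 in Kir. Levels overlapped in both genotypes. An exon of Gm26542 on the opposite strand overlaps the gene.

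Of 24 eicosanoid enzymes and receptors, 18 were tested, Alox5ap among them. From P0 to P21, 5 rose and 6 fell in WT (50.6% of all genes called), and 5 rose and 8 fell in Kir (48.7%). The median change was -0.01 in WT. Alox15, the lipoxygenase of another position, went from 22.0 ± 3.45 TPM (SD, n = 4) to 69.2 ± 4.00 (n = 3) in WT, and Ggt1, which trims leukotriene C4, from 10.5 ± 2.59 to 24.9 ± 5.33. Ptges, a prostaglandin E synthase, fell by 1.94 ± 0.25 and Pla2g4a, which frees arachidonic acid, fell by 1.76 ± 0.24. Neutrophil, macrophage and mast cell markers, which name other cells that carry leukotriene genes, had 1, 5 and 4 falls among 8, 10 and 4 tested genes in WT over the same interval. Summed over 8 mast cell genes, of which Hdc had by far the highest mean, the level went from 100 to 176 TPM in WT P0 to 45.1 to 56.1 in WT P21. The 10 macrophage genes went from 98.7 to 131 TPM in WT P0 to 72.9 to 104 in WT P21 and were above 0 in all libraries. Alox5ap also had its highest WT levels at P0; the part of these cells in its values was not tested.

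Chat and Il25, the genes of the cholinergic and cytokine outputs, were near the limit of detection. Chat (chr14:32408203-32465989, minus strand), choline acetyltransferase, had 2 reads over the 4 WT P0 libraries and 16 over the 3 WT P21 libraries, a ratio of 10.1 in CPM with a 95% exact counting interval of 2.36 to 90.1. In Kir the reads were 3 and 21, a ratio of 9.60 (2.87 to 50.3). All 3 P21 libraries lay above all 4 P0 libraries in both genotypes: in WT 0, 0.06, 0 and 0.05 TPM against 0.63, 1.24 and 0.24, and in Kir 0, 0.08, 0.05 and 0.05 against 0.19, 0.25 and 0.36. Without the filter on low counts edgeR gave changes of 3.13 ± 0.86 in WT (adjusted p = 0.00419) and 3.14 ± 0.78 in Kir (adjusted p = 0.00145). The vesicular acetylcholine transporter gene Slc18a3 lies within the span of Chat. Intervals here cover counting error only.

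Among 11 genes of acetylcholine synthesis, transport, breakdown and muscarinic receptors, 6 were tested. From P0 to P21, 1 rose and 4 fell in WT (50.6% of all genes called), likewise in Kir (48.7%). Slc44a4, a choline transporter family member, went from 23.0 ± 5.03 TPM (SD, n = 4) to 32.8 ± 1.38 (n = 3) in WT. Ache, acetylcholinesterase, went from 18.7 ± 7.89 to 7.68 ± 1.21 TPM and the muscarinic receptor genes Chrm3 and Chrm1 fell by 2.51 ± 0.58 and 3.13 ± 0.81. Of 9 tested markers of brain and ganglion neurons, 6 fell over the same interval; their part in these falls was not tested.

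Il25 (chr14:54932695-54935837, plus strand), the cytokine with which gut tuft cells call type 2 immune cells, had 8 reads in WT P0 and 9 in WT P21 (CPM ratio 1.41, interval 0.484 to 4.21), and 11 and 9 in Kir (1.12, 0.411 to 2.98). A change was not detectable at this depth. It was listed at 0 TPM in 8 libraries. Of 13 type 2 cytokines and receptors 8 were tested. From P0 to P21, 4 rose and 2 fell in WT (50.6% of all genes called), and 3 and 2 in Kir (48.7%). Il33, an alarmin of epithelial cells, went from 49.6 ± 15.2 TPM (SD, n = 4) to 155 ± 20.7 (n = 3) in WT and from 43.3 ± 6.97 to 225 ± 16.0 in Kir. Areg, an epidermal growth factor receptor ligand, fell by 2.31 ± 0.54 in WT.

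Averaged over the 7 ages, 2 of the 8 genes were higher in Kir than in WT, Plcb2 and Alox5ap, and none lower, against 10.4% of all tested genes called (3.03% higher, 7.38% lower). WT and Kir carry different strain labels, so Kir2.1 and strain background cannot be told apart in any difference between them. The median of the 8 was 0.21, against 0.01 over all genes. Trpm5 differed by 0.18 ± 0.12, Pou2f3 by -0.04 ± 0.08, Ascl3 by 0.09 ± 0.12, Ltc4s by 0.22 ± 0.15 and Alox5 by 0.20 ± 0.09, and none of these passed the test. Avil, at 0.24 ± 0.09 (adjusted p = 0.0656), passed it with DESeq2 (adjusted p = 0.0429).

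**Figure D3:**
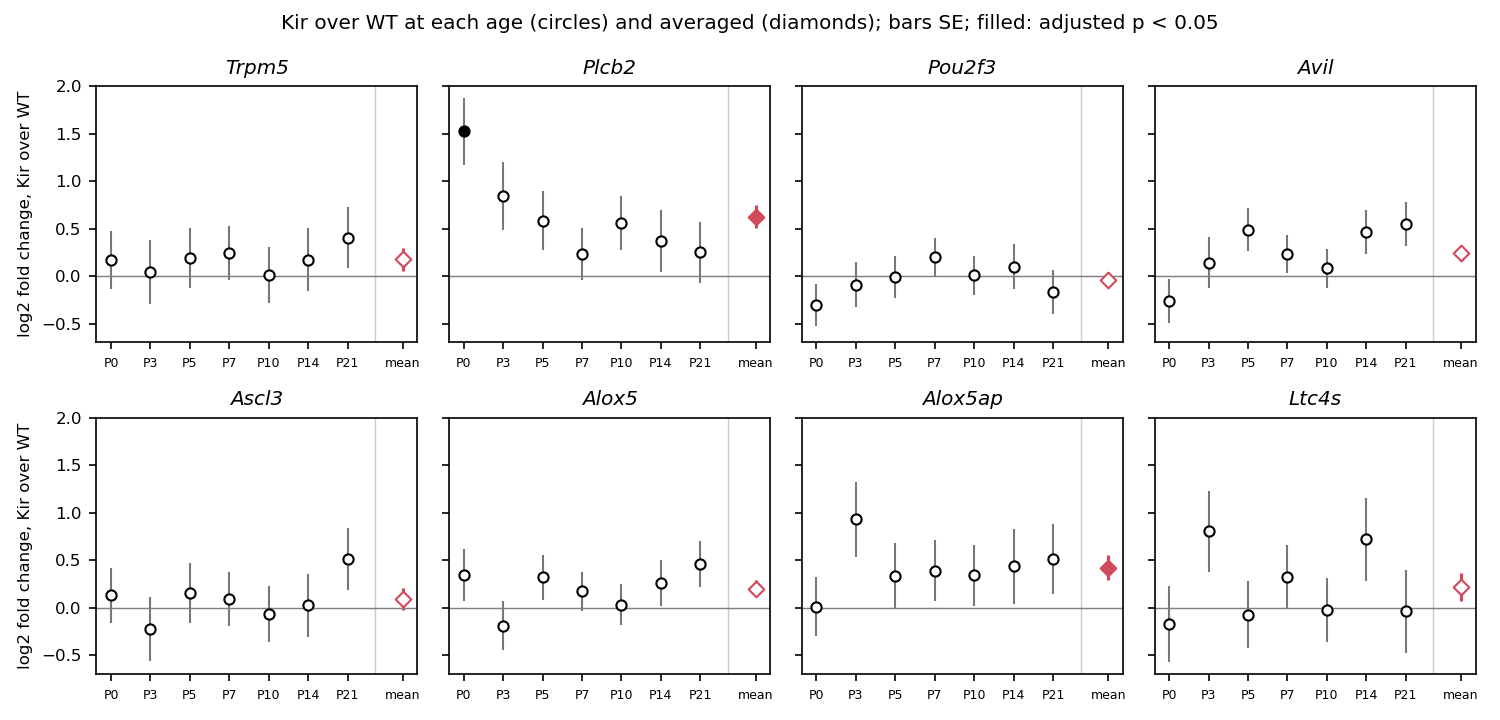
Log2 fold change of Kir over WT (y axis, shared) at each age (circles) and averaged over ages (red diamonds) for the 8 tested genes, with SE bars; filled symbols have an adjusted p under 0.05 by edgeR. Plcb2 at P0 (1.52) is the one filled circle, and Plcb2 (0.62) and Alox5ap (0.42) are the filled diamonds.

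Plcb2 was higher in Kir by 0.62 ± 0.12 on average (adjusted p = 0.000273), with a positive difference at every age; limma on log2(TPM + 1) gave 0.26 (adjusted p = 0.0355). At P0 the 4 Kir libraries held 1.55, 1.02, 1.02 and 1.33 CPM and the 4 WT libraries 0.408, 0.440, 0.209 and 0.608, without overlap, a difference of 1.52 ± 0.36 (adjusted p = 0.0324). In TPM those groups overlapped, with the lowest Kir library at 0.36 and the highest WT library at 0.50. Kir also lay above WT without overlap in CPM at P3 and P5, and in TPM at P5 and P10. The P0 call was lost without WT P0 replicate 1 (0.142) or 3 (0.0533) or Kir P0 replicate 1 (0.0682) or 4 (0.131), each an adjusted p. It was also lost in 4 of 12 alternatives: with limma on log2(TPM + 1) (0.49, adjusted p = 0.51) and log2(TPM + 0.1) (1.26, adjusted p = 0.25), without the filter on low counts (adjusted p = 0.0619) and with WT P0 replicate 3, whose age labels conflict, placed in P3 (adjusted p = 0.10). At P21 the difference was 0.25 ± 0.32. The change from P0 to P21 was smaller in Kir than in WT by 1.27 ± 0.48 (interaction -1.27, unadjusted p = 0.0121, adjusted p = 0.54), which did not pass the test.

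Alox5ap was higher in Kir by 0.42 ± 0.13 on average (adjusted p = 0.0341). Its differences were 0.01 at P0 and 0.34 to 0.93 at the other ages; only its average was called. In TPM all Kir libraries lay above all WT libraries at P5 (5.76, 5.86 and 7.65 against 4.99, 4.02 and 4.37), at P10 (7.87, 7.87, 7.28 and 8.50 against 6.67, 5.29 and 4.62) and at P21 (12.60, 11.37 and 11.82 against 7.06, 10.35 and 7.20), and overlapped at the other 4 ages. In CPM the groups overlapped at all 3 of these ages. The average call was lost in 15 of the 47 fits that left out 1 library (adjusted p up to 0.0662) and in 5 of 14 alternatives. Those were no filter on low counts (adjusted p = 0.0503), WT P0 replicate 3 placed in P3 (0.11), the 5 Kir libraries lowest in Kcnj2 left out (0.12), the P0, P3, P14 and P21 libraries alone (0.18) and the replicate block (log2 difference 0.52, adjusted p = 0.19).

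Averaged over ages, macrophage genes moved the same way. 9 of the 10 macrophage markers were higher in Kir on average (all but Mrc1), with a median of 0.49, and their summed level was 75.1 to 185 TPM (median 123) in Kir libraries and 59.2 to 131 (median 82.3) in WT libraries; none was at 0 in any library. The summed level of 10 neutrophil markers was 132 to 1264 TPM in WT and 149 to 1172 in Kir, and that of 8 mast cell markers 44.6 to 176 and 37.4 to 203. Both sums are mostly 1 gene: Ltf, also a gene of glands, had a mean of 372 TPM over the 47 libraries, and Hdc 66.2. All 7 eosinophil markers stayed below the filter and summed to 4.36 TPM at most. By age, the macrophage sums overlapped at P0 (97.0 to 145 TPM in Kir, 98.7 to 131 in WT). At P21 they were apart (121 to 139 against 72.9 to 104). The Plcb2 difference was 1.52 ± 0.36 at P0 and 0.25 ± 0.32 at P21, and that of Alox5ap 0.01 ± 0.31 and 0.51 ± 0.37. Both Alox5ap and Plcb2 are leukocyte genes as well, and the part of macrophages in their difference was not tested.

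**Figure D4:**
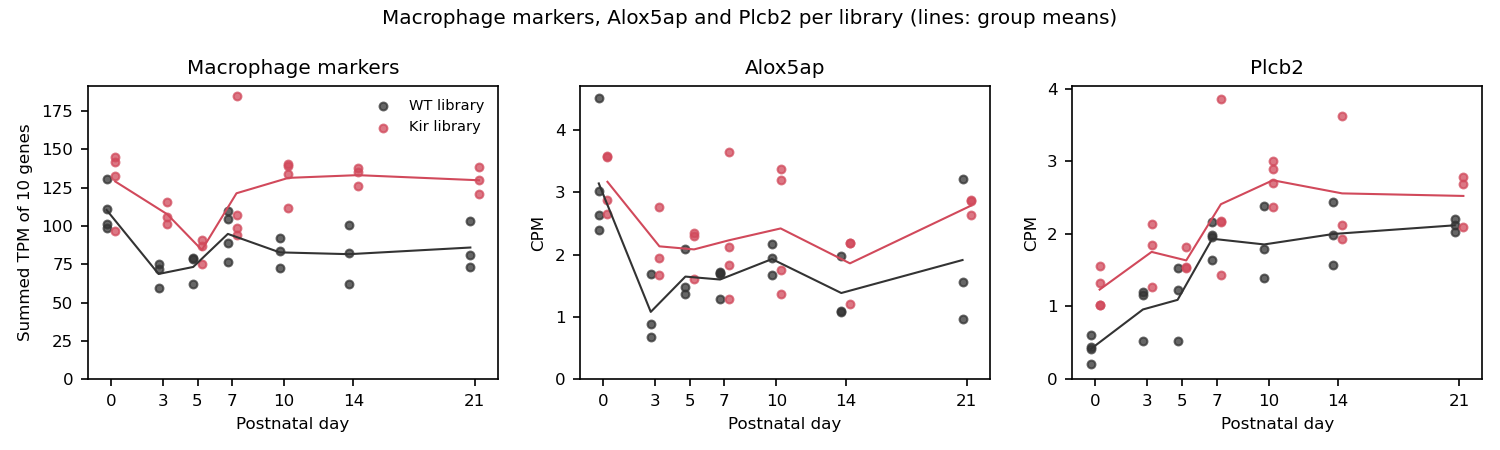
Summed TPM of 10 macrophage markers (left) and CPM of Alox5ap (middle) and Plcb2 (right) per library against postnatal day, WT in black and Kir in red, lines through group means. Over all ages the macrophage sum is 75.1 to 185 TPM in Kir and 59.2 to 131 in WT, with overlap at P0. The Plcb2 groups are separate at P0, P3 and P5.

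At single ages 1 of the 56 gene and age pairs was called, and 5 had an unadjusted p under 0.05: Plcb2 at P0 and P3, Alox5ap at P3, and Avil at P5 and P21. The share of all genes called was 0.984% at P0, 0.713% at P3, 0.115% at P5, 0.0753% at P7, 3.11% at P10, 1.18% at P14 and 0.758% at P21. In CPM all 3 Kir P21 libraries of Trpm5 (19.2 to 19.8) lay above the WT ones (13.9 to 15.7). In TPM they overlapped (8.09 to 11.19 against 6.81 to 8.72), and the difference of 0.41 ± 0.32 did not pass the test. Avil in Kir P5 held 2.42, 2.37 and 2.31 TPM against 1.36, 1.38 and 2.30 in WT. In CPM those libraries overlapped (4.37 to 4.84 against 2.28 to 4.65). Avil at P21 was apart in CPM (8.65 to 9.58 in Kir, 5.14 to 6.84 in WT) and overlapped in TPM. Ltc4s was likewise apart in CPM only, at P3 (0.711 to 0.937 in Kir, 0.384 to 0.529 in WT) and P14 (0.663 to 0.900 in Kir, 0.378 to 0.549 in WT). Alox5 at P3 went the other way, at 2.15 to 3.61 TPM in Kir and 3.78 to 4.46 in WT, and overlapped in CPM. The share of all genes whose groups separate was not counted. For the genotype difference changing with age, 0 of 8 genes were called (0.256% of all genes) and 0 had an unadjusted p under 0.05. For the P0 to P21 change in Kir minus that in WT, 0 of 8 were called (0.251% of all genes), with Avil (0.80 ± 0.32) and Plcb2 at an unadjusted p under 0.05. DESeq2 and limma on TPM called 0 in both.

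Within the lists around these genes, 6 of 23 tuft identity genes were higher in Kir on average and none lower. Over all tested genes, 3.03% were higher and 7.38% lower. Among the 6 were Sh2d7 (0.34 ± 0.11), Spib (0.35 ± 0.11) and Fyb (0.53 ± 0.09), and Fyb is an adapter of leukocytes too. Of the 9 cascade genes, Gng13 (-0.42 ± 0.13) and Gnb1 (-0.18 ± 0.04) were lower and Plcb2 was the one that was higher, while all 13 mature neuron markers were lower (median -0.41). Among the 18 eicosanoid genes 4 were higher, Alox5ap, Ptgs1 (0.30 ± 0.08), Hpgd (0.23 ± 0.06) and Hpgds (0.37 ± 0.11). The ionocyte list had 2 higher genes, Ptgs1 and the transcription factor gene Foxi1 (0.18 ± 0.05). Il17rb, a subunit of the Il25 receptor, was the one type 2 gene called, at 2.50 ± 0.960 TPM in 24 Kir libraries and 1.58 ± 0.471 in 23 WT libraries (SD over all ages), a difference of 0.67 ± 0.08 (adjusted p = 1.79e-07).

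Libraries of one group could still vary together, so the genes were correlated over the 47 libraries after group and prefix means were removed from log2(TPM + 1). Over the 45 pairs Pearson's r ran from -0.29 to 0.37 with a median of 0.05, and 0 pairs passed adjustment over the 45 by permutation within group and prefix (smallest adjusted p = 0.775 for r and 0.247 for Spearman's rho). At an unadjusted p under 0.05 there were 0 pairs for r and 2 for rho. Trpm5 and Pou2f3 were among the pairs that did not pass. The highest rho was between Avil and Alox5 (rho = 0.48, permutation p = 0.0055, adjusted p = 0.247; r = 0.36, permutation p = 0.0893, adjusted p = 0.775), and r was 0.47 without the 2 libraries farthest from the median of Avil. With log2 CPM in place of TPM, 0 pairs passed and 6 had an unadjusted p under 0.05 for r.

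**Figure D5:**
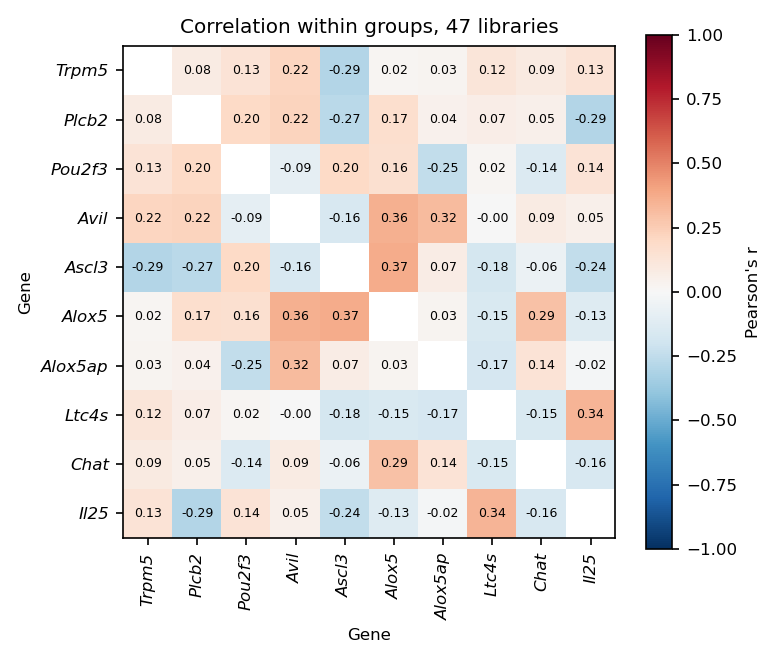
Pearson's r (colour and number, from -1 to 1) between each pair of the 10 genes over 47 libraries, after group and prefix means were removed from log2(TPM + 1). Values run from -0.29 to 0.37, and 0 of 45 pairs passed the permutation test.

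Of 17194 other genes with a mean of at least 1 TPM, those with the highest r to Ascl3 in the same residuals were Elf5 (r = 0.86), Limd2 (0.84) and Epas1 (0.84). For Trpm5 they were Rab2b (0.72), Cntd1 (0.70) and Lrpap1 (0.69), for Pou2f3 Snapin (0.71), Tmem35b (0.69) and Ing4 (0.69), and for Avil Tlcd2 (0.68), Rbms2 (0.61) and Hps1 (0.56). For Alox5 they were Ssh3 (0.73), Idh2 (0.73) and Card10 (0.72), for Alox5ap Gm5881 (0.62), B4galt5 (0.60) and Gm5436 (0.60), and for Ltc4s Arrdc2 (0.70), Mtpn (0.70) and Mrto4 (0.66). The 3 closest genes were different for each of the 7, and each r is the highest of 17194 over libraries that share depth and dissection, so it is a description with no test.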

How the data were processed

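RNA of olfactory epithelium was extracted in TRIzol, per the labels' protocols, and reads were processed with bcl2fastq 2.18, STAR 2.6.1c and RSEM on mm10, per the submitters' processing notes. The authors deposited read counts per gene and, in another table, TPM per gene; no source used here gives the annotation or the strand setting. The 4 lines of the count table that name no gene, 23.4% to 45.4% of a library, stayed out of library sizes and tests. TPM depends on RSEM's transcript lengths and shared reads, so it can differ from the counts.

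Libraries were grouped by title; the labels of WT P0 replicate 3 disagree on its age (P3 by stage), and it was placed by title. Counts of all 47 libraries were fitted with edgeR 4.0.16 (TMM, filterByExpr, robust quasi-likelihood, group means plus title prefix) in R 4.3.3, and called at a Benjamini-Hochberg adjusted p below 0.05. The fold change's SE came from the F statistic. Alternatives were DESeq2 1.42.0, limma 3.58.1 on log2(TPM + 1) and log2(TPM + 0.1), other factors, filters and sets of libraries, and each library left out. The edgeR script was tested on simulated counts with the same spread for every gene. In WT P21 versus P0 it recovered 50 of 100 genes changed 2-fold and 99 of 100 changed 4-fold, with 3 false calls among 152. Of 200 genes changed 1.5-fold in Kir at all ages it recovered 181, with 13 false calls among 220. Correlations used 100000 permutations within group and prefix.

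The 10 genes and the lists were chosen with earlier results of these data known. All 10 are named; of each other list up to 4 called genes with the smallest adjusted p and at least 0.5 TPM in either group are named, and for each of the 10 with a mean of at least 1 TPM the 3 genes (past the count filter, mean of at least 1 TPM) with the highest residual correlation. Replicates differed beyond sampling noise in all 57 within-group pairs (chi-square per degree of freedom 7.24 or more). 1 gene that this rule names is not reported here.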

Additional observations from a re-analysis of the deposited data

Results flagged for a closer look

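Pou2f3 in WT P0 replicate 1 was at 1.17 TPM, set apart from the other 3 WT P0 libraries, which held 2.62 to 2.90 TPM (Dixon's test for 4 values). It was the single flag among 50 gene and group combinations of 4 libraries, where chance flags about 1 in 20. The same library held the highest sum of brain and ganglion neuron markers of its group, 267 TPM against 112 to 117 in the other 3; the part of this in the Pou2f3 value was not tested. Without the library, Pou2f3 rose from P0 to P21 in WT by 0.98 ± 0.20 (edgeR adjusted p = 0.00016).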

How the results depend on the processing

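The 5 rises from P0 to P21 in WT held under all 14 alternatives and all leave-one-out fits (5 to 6 genes called each time), as did those of Trpm5, Pou2f3, Avil and Alox5 in Kir (5 to 6 called); no result reversed. Sizes of those calls moved by over 1.5 times only with limma on log2(TPM + 1) (WT Alox5 1.24 and Plcb2 0.61, Kir Alox5 1.71 and Trpm5 1.23). That scale understates low genes, and TPM and counts also differ. Among libraries with at least 10 reads, TPM per CPM ranged from 0.362 to 0.930 for Trpm5 and from 0.407 to 1.98 for Alox5. The part of each was not tested. Plcb2 in Kir lost its call with limma on log2(TPM + 1) (0.15) and log2(TPM + 0.1) (0.32). Without the 5 Kir libraries lowest in Kcnj2, which leaves Kir P21 with replicate 3 alone, its change was 0.81. The P3 to P14 count in WT was 1 without a filter on low counts and 1 with both limma fits, and the P5 to P10 count 0 with both. The averaged genotype count was 1, Plcb2 alone, without a filter, with WT P0 replicate 3 placed in P3, without those 5 Kir libraries, in P0, P3, P14 and P21 alone, and with the replicate block by age and number. The single-age count was 0 without a filter, with both limma fits and with WT P0 replicate 3 in P3. Leaving out 1 library at a time gave 2 to 5 genes from P0 to P3 in WT (2 without WT P0 replicate 1), 1 to 3 from P3 to P14, 0 to 1 from P5 to P10, 1 to 3 for the averaged genotype difference and 0 to 1 at single ages. Causes were not tested. Same-numbered WT and Kir libraries correlated at -0.22 to 0.34, 6 of 13 above 0.1, and 6 of 13 best with their own number; the 3 pairs at P3 were 0.23 to 0.26, each best with its own, while pairs at the other ages were on both sides of 0. The numbers were not taken as pairing the libraries, but a shared source at P3 was not tested. Without Kir P10 replicates 1 and 2, an alternative chosen after seeing the data, no count of calls moved by over 1.5 times. Chat, Il25 and Ltc4s are limited by depth.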
